A study of Mus musculus with 11 samples.

Results

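The ligands described here are 10 CC chemokines, CCL2, CCL3, CCL4, CCL5, CCL7, CCL8, CCL11, CCL17, CCL20 and CCL22, taken by their symbols from the 248 genes of a mouse inflammation panel measured in cornea. All 10 were listed in every one of the 11 samples, and none was filtered out. The corneas came from female C57BL/6J mice after 5 days of desiccating stress, a dry eye model in which drafty, dry air is combined with scopolamine to lower tear secretion. The groups were vehicle eye drops (3 samples), the pan agonist of Trk receptors at 10 µM (4 samples, called pan) and the TrkC agonist at 10 µM (4 samples, called C1). Every group was under stress, so no unstressed cornea serves as a baseline. The labels call the cells corneal epithelia, and the panel carried no keratin or other defining gene of corneal epithelium with which to check this. The labels give an age of 3 months to all samples, and a second field gives 2 to 3 months to the vehicle samples and pan replicates 1 to 3 but 22 to 24 months to pan replicate 4 and to all 4 C1 samples. The methods give a single age range, counted in weeks, for all mice of the study, which is at odds with a label of 22 to 24 months. Treatment with C1 and that second age label cannot be told apart in the comparison of C1 with vehicle. The methods call the samples biological replicates and kept those passing quality control. Neither they nor the labels say whether samples are separate animals, so p-values measure the spread between these samples, which may be partly technical.

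CC chemokines are small secreted proteins, named after a pair of neighbouring cysteines, that bind G protein-coupled receptors on leukocytes and draw those cells along a gradient. At the ocular surface, stressed epithelium and resident myeloid cells are known sources of such ligands, which recruit monocytes, dendritic cells and CD4+ T cells. CCL2, CCL7, CCL8 and CCL11 form the monocyte chemoattractant and eotaxin group, CCL3, CCL4 and CCL5 are inflammatory ligands that attract macrophages and T cells, CCL17 and CCL22 share the receptor CCR4, and CCL20 is the ligand of CCR6.

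In the RefSeq gene table of GRCm38.p6, 7 of the 10 genes lay on chromosome 11 (Ccl2, Ccl3, Ccl4, Ccl5, Ccl7, Ccl8 and Ccl11), 2 on chromosome 8 (Ccl17 and Ccl22) and 1 on chromosome 1 (Ccl20). RefSeq promoter windows were at hand for 5 members, CCL3, CCL8, CCL17, CCL20 and CCL22. The 250 bases before each start site were searched on both strands for the consensus of NF-kB, the transcription factor known to drive many inflammatory chemokines. CCL20 was the 1 member of these 5 with a match, which began at position -80 from the start site, against 1281 of 32851 windows (3.9%) among all promoters. Its window, chr1:83116516-83116765 on the plus strand, is shown because it held the match, which is in capitals. That of CCL22, chr8:94745434-94745683 on the plus strand, is shown as well. CCL22 was the member that most often stood above the first of the reference limits described below, though CCL2 did so by another limit. A match is a sequence description and does not show binding.
CCL20: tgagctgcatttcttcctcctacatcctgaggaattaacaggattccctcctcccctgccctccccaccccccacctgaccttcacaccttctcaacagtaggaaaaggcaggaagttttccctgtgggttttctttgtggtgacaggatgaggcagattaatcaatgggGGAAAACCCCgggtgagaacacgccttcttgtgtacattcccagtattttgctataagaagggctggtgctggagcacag
CCL22: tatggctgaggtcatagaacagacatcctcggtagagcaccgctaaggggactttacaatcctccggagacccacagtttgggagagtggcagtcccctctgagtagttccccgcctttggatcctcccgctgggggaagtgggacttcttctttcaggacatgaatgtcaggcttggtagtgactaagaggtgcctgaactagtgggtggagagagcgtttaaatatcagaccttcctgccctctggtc

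All 10 ligands were counted at the low end of the panel. Their means over the 11 samples were 6.25 to 15.8 normalized counts (each probe's count scaled by housekeeping genes), and on the log2 scale 2.37 for CCL4 to 3.89 for CCL7, with a median over the 10 genes of 3.47. The median over all 248 genes was 5.62 on the same scale. The 107 other genes with a mean log2 value under 5, called low-count genes here, had a median of 2.96. Probes differ in efficiency, so these figures place each count within the panel and do not compare amounts of mRNA between genes.

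Since the tables hold no negative control probes, 12 panel genes restricted to other organs, such as the liver complement genes C8A, C8B and C9 and the heart muscle gene MYL2, served as a reference for signal without expression. Their mean log2 values were 2.23 to 3.72, a range that overlapped that of the chemokines. With a limit set in each sample at the mean plus 2 SD of these 12 genes, 20 of the 110 values of the ligands lay above it. Of the 248 panel genes, 137 (vehicle replicate 2) to 169 (vehicle replicate 3) lay above it in a sample. The limit itself ran from 11.1 normalized counts in pan replicate 4 to 36.8 in vehicle replicate 2. The number of samples in which a ligand exceeded it thus also depended on each sample's limit. CCL22 exceeded the limit in 6 of 11 samples, CCL2 and CCL7 in 4, CCL5 in 2, CCL3, CCL8, CCL17 and CCL20 in 1, and CCL4 and CCL11 in 0. Against the highest of the 12 genes in each sample instead, CCL2 was above in 6 of 11 samples and CCL7 and CCL22 in 4. With the same limit drawn from the low-count genes, 0 of 110 values lay above it. CCL21A, the lymphatic ligand of CCR7, lay by contrast above each of these limits in 11 of 11 samples, with a mean of 136 normalized counts. It has near-identical copies in the mouse genome whose signal its probe may share.

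**Figure D1:**
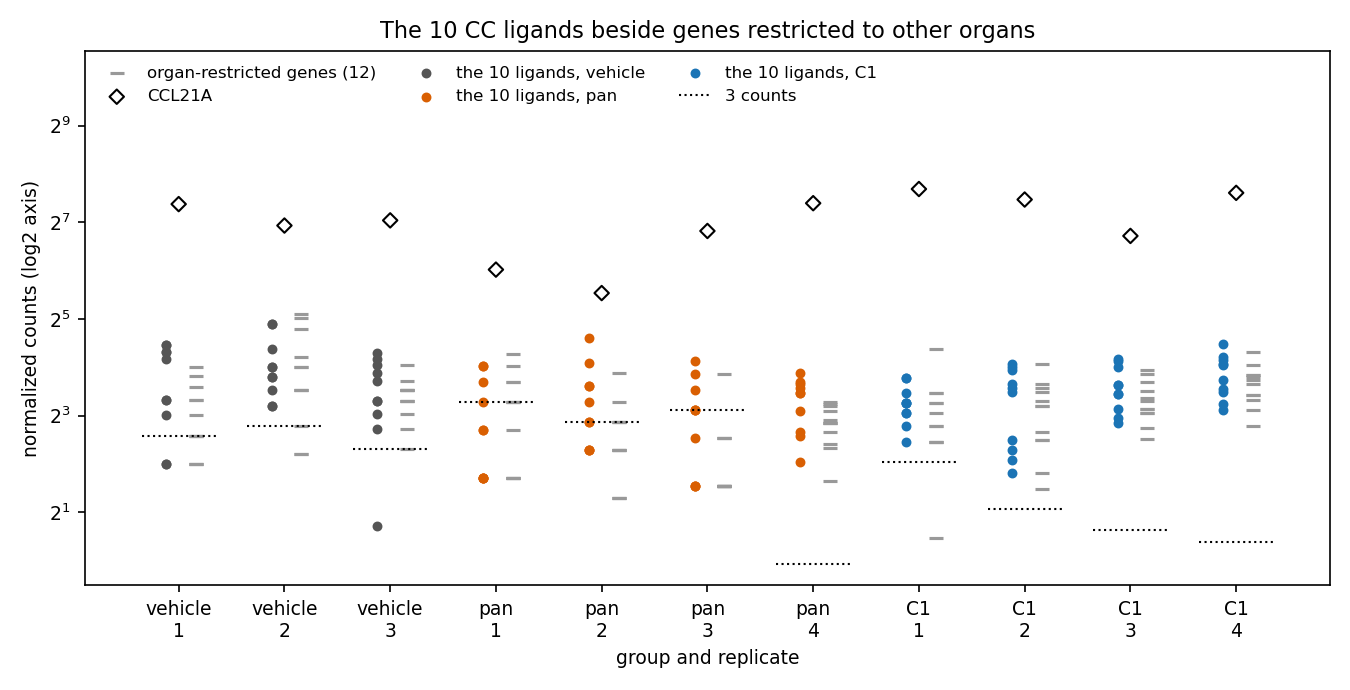
Normalized counts on a log2 axis in each sample for the 10 CC ligands (filled circles, coloured by group), 12 genes restricted to other organs (grey dashes), CCL21A (open diamonds) and the value of 3 counts (dotted line). The ligands and the organ-restricted genes cover the same range, CCL21A stands above both, and in pan replicates 1 to 3 much of the range lies at or under 3 counts.

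The counts behind these values were few. The sum over the 10 ligands was 69 to 74 counts in the vehicle samples, 25, 43 and 29 in pan replicates 1 to 3, 315 in pan replicate 4 and 70 to 339 in the C1 samples. Total counts over the panel were 91955 to 133098 in vehicle, 64156 to 646446 in pan, where replicate 4 had the highest total, and 165828 to 525997 in C1, so depth and C1 treatment cannot be told apart either. Each probe count corresponded to a normalized count of 3.25 for pan replicate 1, the shallowest library, but of 0.315 for pan replicate 4. In pan replicates 1 to 3, 19 of 30 values of the ligands rested on 3 counts or fewer, against 3 of 30 in the vehicle samples and 0 in pan replicate 4 and in the C1 samples. No gene was at 0 in any sample, and in pan replicates 1 to 3 the number of genes at exactly 1 count was 52, 18 and 51 of 248. Genes at or under 3 counts numbered 85, 60 and 82 in these samples. Whether a 1 stands for a count of 0 raised to 1 cannot be told from these values. The fold changes and intervals below take each 1 as a measured count.

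With pan, 9 of the 10 ligands had lower mean log2 values than with vehicle, and 0 passed an adjusted p of 0.05 (limma, Benjamini-Hochberg over 248 genes), beside 2.02% of all genes. Without adjustment 3 ligands, CCL3, CCL5 and CCL7, were lower at p under 0.05, beside 10.1% of all genes, and in 2, CCL7 and CCL22, the groups did not overlap, beside 8.47%. The median log2 fold change of the 10 was -0.67. It was -0.64 for the low-count genes, of which 85 of 107 were lower, -0.76 for the organ-restricted genes, of which 11 of 12 were lower and 1 passed an adjusted p of 0.05, and -0.20 for all genes. The chemokines thus shifted by about as much as other genes at the bottom of the panel. When each sample was centred on its median low-count gene, an alternative chosen after seeing the data that moved the median of all genes by 0.79, the ligands split into 5 lower and 5 higher with a median of 0.12. In these bulk samples fewer cells of a type and less RNA per cell cannot be told apart.

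**Figure D2:**
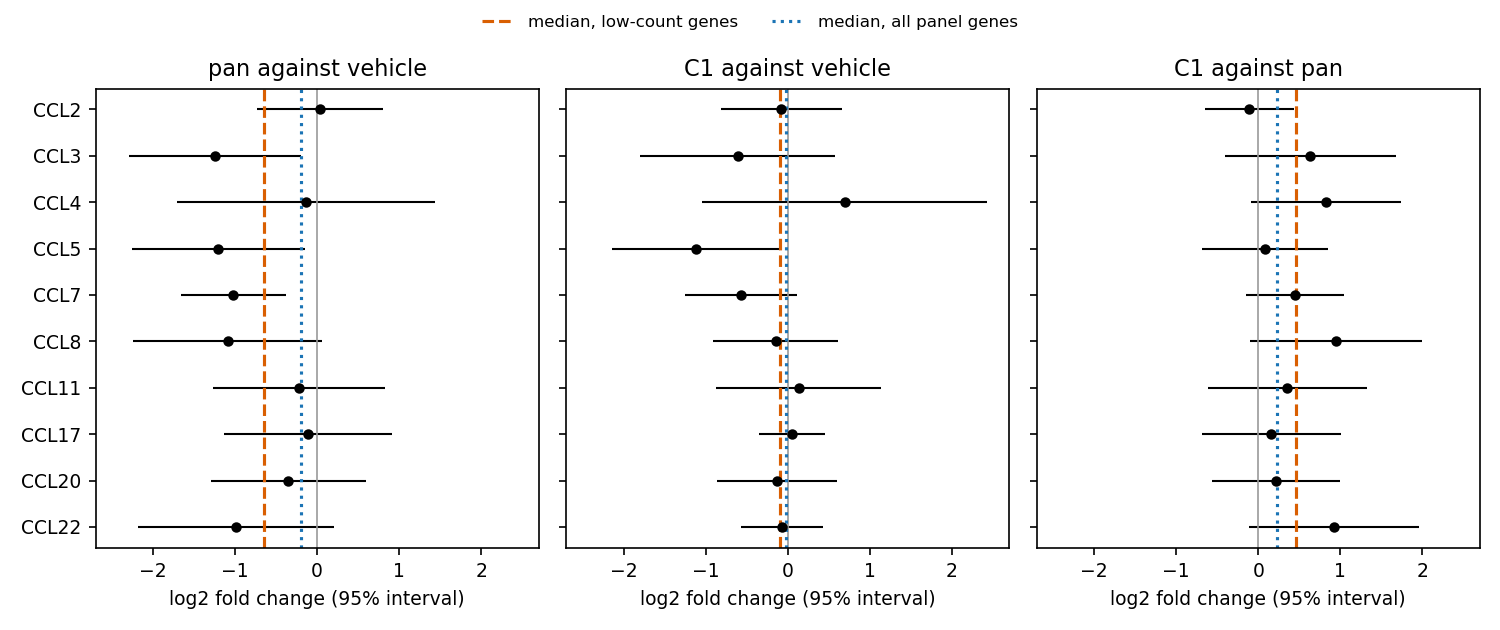
Log2 fold change of each of the 10 CC ligands with its 95% interval from limma for pan against vehicle, C1 against vehicle and C1 against pan, with the median of the low-count genes (dashed) and of all panel genes (dotted). With pan the ligands scatter around the low-count median of -0.64, and none passed an adjusted p of 0.05 in any panel.

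CCL7, a chemoattractant of monocytes, had the smallest p of the 10. Its values were 20.02, 30.0 and 18.1 normalized counts in vehicle, 13.0, 9.76, 8.69 and 12.9 in pan and 9.63, 16.8, 18.1 and 16.8 in C1. All pan samples were below all vehicle samples, and pan replicate 4, which had 41 counts of CCL7, was level with pan replicate 1, which had 4. The difference between pan and vehicle was -1.02 on the log2 scale, a 2.03-fold lower value (SE 0.28, 95% interval -1.66 to -0.38), with an unadjusted p of 0.00635 in limma and an adjusted p of 0.131. By exact permutation p was 0.0571, as low as 4 against 3 samples can reach. The C1 samples were also all below the vehicle samples, by -0.57 (SE 0.29, adjusted p = 0.469 in limma), but C1 replicate 3 at 18.06 nearly touched vehicle replicate 3 at 18.09, and the difference was -0.35 without vehicle replicate 2 and -0.36 without C1 replicate 1.

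CCL2, which like CCL7 draws monocytes and is the main ligand of CCR2, overlapped between all groups. It was counted at 18.0, 9.22 and 19.7 in vehicle, 16.2, 17.1, 17.4 and 11.01 in pan and 11.01, 12.6, 15.99 and 17.7 in C1. The lowest of all samples was vehicle replicate 2, on 4 counts. The log2 difference from vehicle was 0.03 with pan (95% interval -0.74 to 0.80) and -0.08 with C1 (-0.82 to 0.66), intervals that hold changes of either sign.

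CCL8, another monocyte attractant, was at 8.01, 13.8 and 9.87 in vehicle, 3.25, 4.88, 2.90 and 11.96 in pan and 5.50, 11.2, 10.8 and 11.2 in C1. The low pan values were those of replicates 1 to 3 and stood on 1, 2 and 1 counts, while pan replicate 4, on 38 counts, lay inside the vehicle range. The difference of -1.09 with pan (SE 0.50) had an adjusted p of 0.447 in limma. It passed the threshold in 2 alternatives that fitted all 3 groups together with a covariate, at -1.24 (adjusted p = 0.0392 in limma) with each sample's log2 total and at -1.52 (adjusted p = 0.0461) with the second age label. It passed neither with all 3 groups and no covariate (adjusted p = 0.294) nor with the same covariates on the 2 groups alone, a choice made after seeing the data (adjusted p = 0.139 and 0.0932). After background subtraction the sign turned, to 0.57.

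CCL11, the eotaxin that attracts eosinophils through CCR3, was among the lowest, at 4.004 to 9.22 in vehicle, 2.90 to 9.74 in pan and 3.51 to 8.77 in C1. Its highest pan value, in replicate 1, was 3 counts. The groups overlapped, and neither difference from vehicle, -0.22 with pan (95% interval -1.27 to 0.83) and 0.13 with C1 (-0.87 to 1.14), exceeded the spread.

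Among the inflammatory ligands, CCL3 was at 20.02, 16.1 and 8.22 in vehicle, 3.25, 4.88, 8.69 and 8.50 in pan and 9.63, 4.91, 7.74 and 18.6 in C1. CCL3 is a macrophage inflammatory protein made by activated myeloid cells. Pan replicates 3 and 4 lay just above the lowest vehicle sample, and the difference of -1.24 (SE 0.45) had an unadjusted p of 0.0257 and an adjusted p of 0.268 in limma. The exact permutation p was 0.171. CCL3 with C1 differed from vehicle by -0.61 (95% interval -1.79 to 0.58), which ranged from -0.99 without vehicle replicate 3 to -0.31 without C1 replicate 2, with -0.34 without vehicle replicate 1 and -0.95 without C1 replicate 4.

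CCL5, known as a product of activated T cells and of virus-stimulated epithelium, was at 22.0, 30.0 and 9.87 in vehicle, 6.49, 7.32, 14.5 and 6.29 in pan and 8.25, 5.61, 12.4 and 9.50 in C1. In both agonist groups 3 of 4 samples were below the lowest vehicle sample, vehicle replicate 3. The log2 differences were -1.20 with pan (SE 0.46, unadjusted p = 0.0300, adjusted p = 0.298 in limma) and -1.12 with C1 (SE 0.43, unadjusted p = 0.0358, adjusted p = 0.436). Both comparisons use the same 3 vehicle samples, so the 2 differences are not separate observations.

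CCL4, a macrophage inflammatory protein like CCL3, was the lowest member, and vehicle alone spanned 1.64 to 13.8 normalized counts, or 1 to 6 counts. Pan samples were at 2.90 to 7.32 and C1 samples at 4.21 to 13.4, all inside the vehicle range. Its interval was the widest in both comparisons with vehicle, -1.71 to 1.44 with pan and -1.04 to 2.43 with C1.

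The CCR4 ligands CCL17 and CCL22 are products of dendritic cells and macrophages. CCL22 was at 22.0, 16.1 and 16.4 in vehicle, 3.25, 12.2, 11.6 and 14.8 in pan and 13.8, 16.1, 17.5 and 22.5 in C1. All pan samples lay below all vehicle samples, with pan replicate 1 on 1 count and pan replicate 4 on 47. The difference was -0.99 (SE 0.52, adjusted p = 0.490 in limma, exact permutation p = 0.0571), and it was -0.49 without pan replicate 1. CCL17 was at 10.0, 11.5 and 14.8 in vehicle, 6.49, 24.4, 8.69 and 11.01 in pan and 13.8, 11.9, 12.4 and 11.7 in C1, so that pan held both the lowest values and the highest. Its difference with C1 was the most tightly bounded of the 10, at 0.05 (95% interval -0.34 to 0.45).

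CCL20, the ligand with the NF-kB match in its promoter window above and an attractant of dendritic cells and Th17 cells, was at 10.0, 20.7 and 13.2 in vehicle, 16.2, 12.2, 5.80 and 12.6 in pan and 9.63, 15.4, 10.8 and 16.4 in C1. The groups overlapped throughout. The log2 difference from vehicle was -0.35 with pan (95% interval -1.30 to 0.60) and -0.13 with C1 (-0.87 to 0.60).

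**Figure D3:**
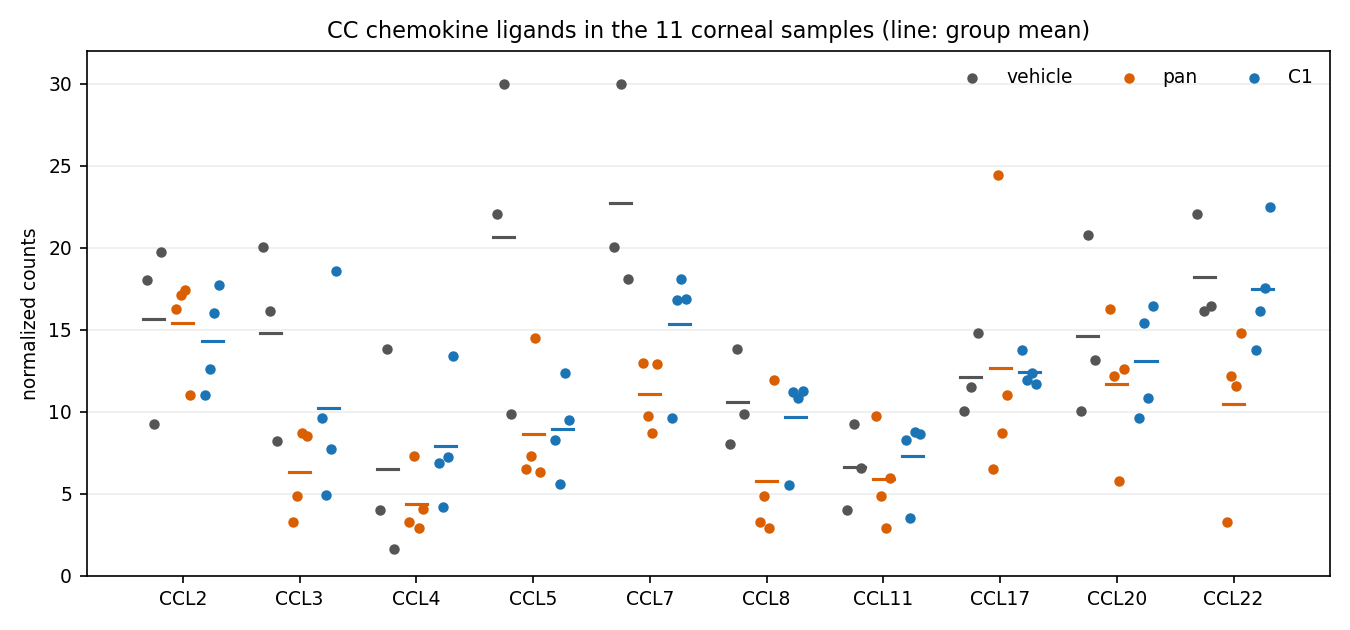
Normalized counts of the 10 CC ligands in each of the 3 vehicle, 4 pan and 4 C1 samples (points) with the group mean (line). The groups overlap for most ligands, and the pan samples of CCL7 and CCL22 lie below all vehicle samples.

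The counting intervals of the low pan values were wide. In pan replicates 1 to 3, 17 of 30 values were below the lowest vehicle sample of the same gene, and in 17 of these 17 the exact Poisson 95% interval of the count, which covers counting error only, reached that vehicle value. The 1 count of CCL22 in pan replicate 1, for example, had an interval of 0.0822 to 18.1 normalized counts, against a lowest vehicle value of 16.1. If a 1 stood for a count of 0, its upper limit would be lower, and 17 of 17 might not hold. Pan replicate 4, the deepest sample, had 3 of 10 ligands below the lowest vehicle sample, CCL5, CCL7 and CCL22, 0 above the highest and 7 within the vehicle range. In the C1 samples 14 of 40 values were below the lowest vehicle sample, and for 14 of these 14 the interval reached it. For CCL5 and CCL7 in pan replicate 4 the interval did not reach the lowest vehicle value, whose own counting error is not part of that interval. That library differs from the other pan samples in its age label as well as in depth.

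With C1, 7 of the 10 ligands had lower mean log2 values than with vehicle, with a median of -0.10 beside -0.09 for the low-count genes and -0.02 for all genes. The number past an adjusted p of 0.05 was 0 among the ligands and among all genes (0%) in limma, and 1 ligand, CCL5, was lower at an unadjusted p under 0.05, beside 5.24% of all genes. In 1 ligand, CCL7, the groups did not overlap, beside 4.03%. The median turned to 0.19, with 3 lower and 7 higher, when samples were centred on the low-count genes, and to 0.02 without C1 replicate 1.

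Both agonists were given at the same dose for the same number of days, so 1 pair of compounds was compared, over the 10 ligands. With C1, 9 of the 10 ligands had higher mean log2 values than with pan, by a median of 0.40, beside 0.47 for the low-count genes, 0.69 for the organ-restricted genes and 0.23 for all genes. No ligand passed an adjusted p of 0.05 in limma (0 of 10, lowest adjusted p = 0.363, beside 0.403% of all genes), 0 were higher at an unadjusted p under 0.05, beside 13.7%, and in 0 the groups failed to overlap, beside 7.66%. The largest differences were 0.94 for CCL8 (95% interval -0.10 to 1.99), 0.92 for CCL22 (-0.11 to 1.96) and 0.83 for CCL4 (-0.09 to 1.74), so a difference of over 1 log2 unit between the agonists was within the error for these 3. The difference of CCL22 was 0.43 without pan replicate 1, its sample of 1 count, and that of CCL4 was 0.53 without C1 replicate 4. CCL2 had the narrowest interval, -0.65 to 0.43 around -0.11. The direction depended on the scaling, with 6 ligands lower and 4 higher after centring on the low-count genes. Against pan replicate 4 alone, which carries the same age label as the C1 samples, the mean log2 value of C1 was higher for 9 of 10 ligands, by 0.02 to 0.83, while CCL8 differed by -0.36, with no test for a single sample.

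The sum over the 10 ligands was 118 to 171 normalized counts in vehicle, 142 ± 26.3 (SD, n = 3), 81.1 to 105 in pan, 92.3 ± 11.5 (SD, n = 4), and 96.3 to 146 in C1, 117 ± 22.6 (SD, n = 4). Pan lay below vehicle without overlap. The sums of the 12 organ-restricted genes were 100.1 to 196 in vehicle, 55.1 to 110.4 in pan and 102 to 152 in C1, and those of the 107 low-count genes 1165 to 1747, 881 to 1157 and 1085 to 1803. The low-count sums of pan thus also lay below those of vehicle without overlap, and the organ-restricted sums were lowest in pan on average. The 8 macrophage and monocyte markers, which include the complement genes C1QA and C1QB, summed to 222 to 357 in vehicle, 161 to 229 in pan and 262 to 369 in C1. The 2 neutrophil receptors summed to 10.0 to 27.7 in vehicle, 5.80 to 9.76 in pan and 6.88 to 17.3 in C1, and the 4 T cell markers to 26.3 to 30.0, 16.2 to 26.1 and 23.4 to 41.5. The 3 antigen presentation genes summed to 171 to 200.2, 107 to 180 and 163 to 255. The endothelial receptor FLT1 differed by 0.18 with pan and 0.53 with C1. Its groups overlapped, at 10.01 to 25.4 in vehicle, 9.74 to 39.6 in pan and 17.03 to 35.8 in C1. None of these marker genes passed an adjusted p of 0.05 in the 2-group fits with no sample left out. The part of these cell markers in the values of the ligands was not tested.

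The 3 other CC ligands of the panel were lower with pan in 3 of 3, beside 69.8% of all genes, with 0 past an adjusted p of 0.05. CCL19, the partner of CCL21A on CCR7, was at 14.01 to 16.4 in vehicle, 3.25 to 11.6 in pan and 11.9 to 22.0 in C1. Pan lay below vehicle without overlap, beside 8.47% of all genes, and below C1 without overlap, beside 7.66%. The log2 difference between C1 and pan was 1.33 (SE 0.41) with an adjusted p of 0.256 in limma, and the exact permutation p of 0.0286 is the smallest that 4 against 4 samples allow. CCL21A was at 122 to 166, 46.4 to 168 and 105 to 206, and CCL24, an eotaxin, at 6.58 to 12.01, 2.44 to 7.55 and 6.88 to 13.4.

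Among the 5 CC receptors, 5 of 5 were lower with pan than with vehicle and 0 passed an adjusted p of 0.05. Of all genes 69.8% were lower with pan, and of the low-count genes 79.4%. The sum of the receptors was 60.9 to 69.1 in vehicle, 29.2 to 39.0 in pan and 35.8 to 67.4 in C1. CCR4, the receptor of CCL17 and CCL22, was at 6.01 to 18.4 in vehicle, 2.44 to 5.35 in pan and 2.10 to 5.68 in C1. Neither agonist overlapped vehicle, beside 8.47% of all genes lower without overlap with pan and 4.03% with C1. In pan replicates 1 to 3 CCR4 was on 1 count each, and it exceeded the organ-restricted limit in 1 of 11 samples. CCR4 differed by -1.92 with pan (SE 0.46, adjusted p = 0.0912 in limma) and by -1.66 with C1 (SE 0.51, adjusted p = 0.370). Without each sample in turn, its adjusted p with pan in limma was 0.0143 to 0.287. CCR2, the receptor of CCL2 and CCL7, was above the organ-restricted limit in 8 of 11 samples and differed by -0.51 with pan (95% interval -1.41 to 0.39).

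The CXC ligands, the other large chemokine family, were mixed in direction. CXCL1, a neutrophil attractant, was at 9.22 to 16.4 normalized counts in vehicle, 37.7 to 56.3 in pan and 17.5 to 156 in C1, and exceeded the organ-restricted limit in 9 of 11 samples. It rose with pan by 1.86 (SE 0.29, adjusted p = 0.0181 in limma), although the adjusted p was 0.0536 to 0.0705 when vehicle replicate 2 or 3 or pan replicate 1, 2 or 4 was left out. CXCL2 was at 4.004 to 9.22 in vehicle and 14.5 to 27.1 in pan, a difference of 1.61 (SE 0.35, adjusted p = 0.0753). Of the 6 CXC ligands 4 were higher and 2 lower with pan, and CXCL9, an interferon-induced ligand, differed by -1.06 (SE 0.33, adjusted p = 0.210). The difference between the CC and the CXC families was not tested. Of the 10 cytokines known to induce chemokines, 1 was lower with pan at an adjusted p of 0.05, IFNG (-2.40, SE 0.24, adjusted p = 0.00246 in limma), and 0 rose. Its pan samples stood on 1, 1, 1 and 10 counts, the same as those of MBL2, the organ-restricted gene that passed (-1.59, adjusted p = 0.0305). The pan values of IFNG thus lay at the level of the reference genes. Of 4 NF-kB genes, 1 rose, TNFAIP3 (1.86, SE 0.25, adjusted p = 0.00846), with an adjusted p of 0.0566 without vehicle replicate 2 and 0.0536 without vehicle replicate 3. In the comparison of C1 with vehicle and in that of C1 with pan, 0 genes of these families and lists passed the same threshold.

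**Figure D4:**
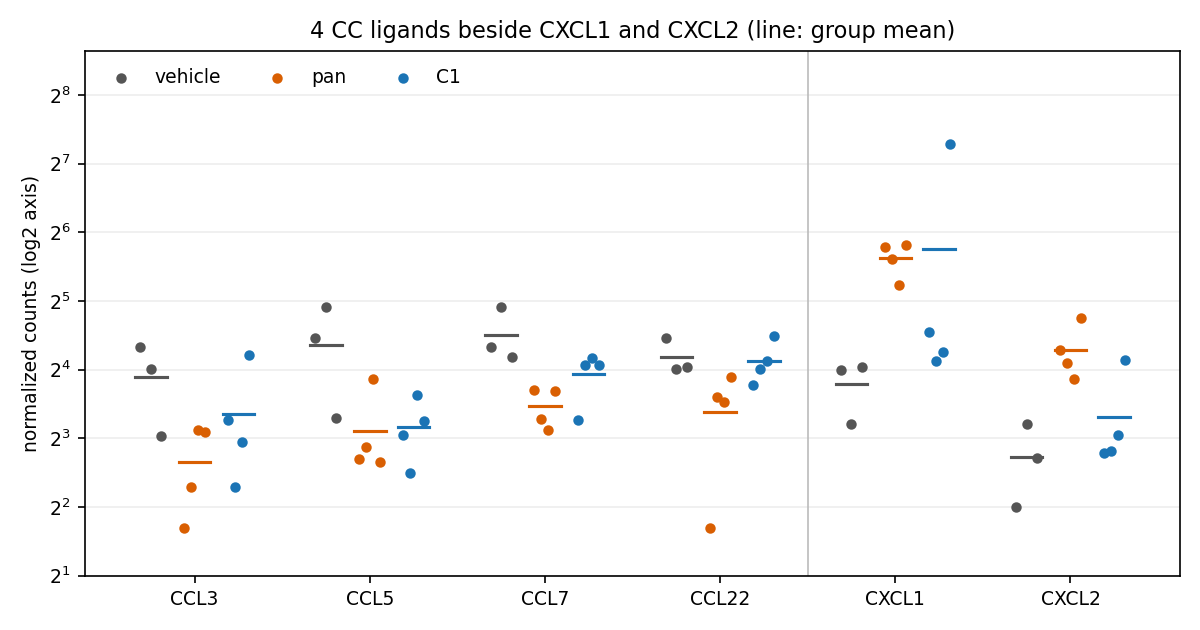
Normalized counts on a log2 axis for CCL3, CCL5, CCL7 and CCL22 and, to the right of the grey line, for the CXC ligands CXCL1 and CXCL2 in each vehicle, pan and C1 sample (points) with the group mean (line). The pan samples of CXCL1 and CXCL2 lie above all vehicle samples, whereas those of CCL7 and CCL22 lie below them.

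The genes whose profile over the 11 samples was nearest to that of the 3 highest ligands, by the root mean square difference of centred log2 values, were NOS2 (0.31), IRF3 (0.33) and IL3 (0.38) for CCL7, MEF2D, PRKCB and TRADD (0.30 each) for CCL2, and IIGP1 (0.17), ELK1 (0.36) and BCL6 (0.37) for CCL22. The spread of the ligands themselves on the same measure was 0.51, 0.35 and 0.72. For CCL2 the nearest genes were thus little nearer than its own mean, while IIGP1, an interferon-induced GTPase, was nearer to CCL22. All of these values share the same libraries and depths.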

How the data were processed

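Corneal RNA from 3 vehicle, 4 pan and 4 C1 samples was counted with a NanoString nCounter mouse inflammation panel. The authors deposited 2 tables of log2 normalized counts for 248 genes, scaled by 6 housekeeping genes per the methods. The vehicle values are the same in both tables. Each table also holds 4 columns of the authors' own comparison, which were not used.

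Probe counts were recovered from the smallest step of each sample, and all values were whole to within 0.01 counts. Each comparison was fitted on the log2 values of its 2 groups by limma 3.58.1 under R 4.3.3, using lmFit and eBayes, without covariates or filter, with Benjamini-Hochberg adjustment over 248 genes. Two-sided exact permutation tests of single genes and exact Poisson intervals used SciPy 1.17.1. The fit was tested on simulated data. The criteria for recovery were set on genes with higher counts than the ligands, so that test does not cover recovery at their level.

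The named genes were all 10 ligands, the other CC ligands, CC receptors, CXC ligands, inducing cytokines, NF-kB genes, organ-restricted genes, cell type markers and, for the 3 ligands with the highest mean, the 3 nearest genes. Values are given for some of them, and a list's counts for the rest. The ligands and lists were chosen with earlier results of these data known. Alternatives were other prior variances, centring, filters, a floor of 20 normalized counts, background subtraction, 1 fit of all groups, covariates, voom weights, the replicate block and leaving out each sample. The planned covariate fits held all 3 groups. Centring on the low-count genes and covariate fits of pan and vehicle alone were added after seeing the data.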

Additional observations from a re-analysis of the deposited data

Results flagged for a closer look

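Of 20 sets of 4 replicates (10 ligands in pan and in C1), 5 held a sample far from the other 3, where about 1 in 20 such sets would by chance. On the log2 scale CCL2 was at 3.46 in pan replicate 4, on 35 counts, against 4.02 to 4.12 in the other pan samples. CCL22 was at 1.70 in pan replicate 1, on 1 count, against 3.53 to 3.89. In C1 replicate 1, CCL7 was at 3.27 on 7 counts, against 4.07 to 4.17, and CCL8 at 2.46 on 4 counts, against 3.44 to 3.49. CCL11 was at 1.81 in C1 replicate 2, on 5 counts, against 3.05 to 3.13. Apart from that of CCL2, these values rested on 1 to 7 counts.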

How the results depend on the processing

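The number of ligands past an adjusted p of 0.05 was 0 in all 3 comparisons under every alternative that gave the ligands a value, except for CCL8 in pan against vehicle, the 1 ligand called when all 3 groups were fitted together with the log2 total count or the second age label as a covariate. Those fits called 8 and 9 of all genes, against 6 with all 3 groups and no covariate and 5 in the 2-group fit. With the same covariates on the 2 groups alone, chosen after seeing the data, 0 ligands and 3 and 2 of all genes were called. The number of all genes called with pan was 1 among well-detected genes (mean log2 value of 5 or more), 2 with a floor of 20 normalized counts, 2 after background subtraction and 1 to 7 without each sample in turn. With C1 it was 0, but 2 with a prior variance that depends on the mean and 4 among well-detected genes. Between C1 and pan it was 1, and 2 with the floor, but 0 with a mean-dependent or robust prior variance, centring on well-detected genes, 1 fit of all groups, either covariate or voom weights, and 0 to 1 without each sample.

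The median log2 fold change of the ligands depended on scaling and background. With pan it was -0.67, but 0.036 after background subtraction, -0.00024 with the floor and 0.12 after centring on the low-count genes. With C1 it was -0.10, but -0.47 with depth and -0.51 with the age label as covariates in a fit of all 3 groups, where the age term rests on pan replicate 4 alone and does not separate age from C1, 0.19 after that centring and -0.26 to 0.022 without each sample in turn. Between C1 and pan it was 0.40, but -0.15 after background subtraction, 0 with the floor and -0.10 after that centring. The cause was not tested. The values of the ligands above the reference limit numbered 20, or 0 by the limit of the low-count genes, which does not mark detection.

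Single ligands below the threshold turned sign as follows. With pan, background subtraction gave 0.072 for CCL4, 0.57 for CCL8, 1.09 for CCL17 and 0.59 for CCL20, and centring on the low-count genes gave 0.66 for CCL4, 0.57 for CCL11, 0.68 for CCL17 and 0.44 for CCL20. The floor gave 0.072 for CCL17, and voom weights -0.15 for CCL2. With C1, background subtraction gave 0.33 for CCL8 and 0.75 for CCL22, and that centring 0.22 for CCL2, 0.15 for CCL8, 0.16 for CCL20 and 0.23 for CCL22. For CCL17 it was -0.017 after centring on well-detected genes, -0.027 with the log2 total count and -0.065 with voom weights, and the second age label gave 0.54 for CCL2 and -0.078 for CCL11. Between C1 and pan, background subtraction gave -0.072 for CCL4, -0.59 for CCL5, -0.015 for CCL7, -0.23 for CCL8, -0.72 for CCL17 and -0.82 for CCL20, and centring on the low-count genes -0.41 for CCL5, -0.048 for CCL7, -0.14 for CCL11, -0.34 for CCL17 and -0.28 for CCL20. The floor gave -0.072 for CCL17, the second age label 0.35 for CCL2 and -0.36 for CCL8, and centring on well-detected genes gave -0.056 for CCL5. With the floor, ligands at the floor in every sample of both groups gave no value of their own and entered the medians as 0.

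Without each sample in turn, the range with pan was -0.31 to 0.24 for CCL2, -0.86 to 0.67 for CCL4, -0.54 to 0.076 for CCL11 -0.49 to 0.15 for CCL17, -0.59 to -0.044 for CCL20 and -1.22 to -0.49 for CCL22. With C1 it was -0.42 to 0.13 for CCL2, -0.033 to 1.503 for CCL4, -0.33 to 0.11 for CCL8, -0.19 to 0.46 for CCL11, -0.074 to 0.21 for CCL17, -0.37 to 0.15 for CCL20 and -0.20 to 0.078 for CCL22. Between C1 and pan it was -0.26 to 0.011 for CCL2, 0.29 to 0.93 for CCL3, 0.53 to 1.11 for CCL4, -0.093 to 0.36 for CCL5, 0.058 to 0.67 for CCL11, 0.43 to 1.16 for CCL22, -0.10 to 0.54 for CCL17 and -0.089 to 0.41 for CCL20.

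Samples of the same number did not deviate together in every pair. The correlations were 0.20, 0.06 and 0.31 for pan with vehicle, 0.04, -0.05 and 0.03 for C1 with vehicle, and 0.51, -0.02, -0.05 and 0.57 for C1 with pan, so the numbers were not taken to pair them. With the replicate block the median of the ligands was -0.75 with pan, -0.22 with C1 and 0.40 between C1 and pan, and 0 ligands were called. The few counts of pan replicates 1 to 3 limit every comparison with pan.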
